A study of Danio rerio with 4 samples.

Results

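Hyaluronan synthases, hyaluronan receptors, link proteins and proteoglycans of the injured zebrafish ventricle are described here through 10 genes. They are *has1*, *has2*, *hapln1a*, *hapln1b*, *vcana*, *vcanb*, *cd44a*, *cd44b*, *dcn* and *lum*. The genes were chosen by symbol, and each had exactly 1 row among the 17221 genes of the deposited table. All 10 are protein coding, and all 10 passed the filter on low values, a mean of at least 10 normalized reads over the 4 libraries, with 54.75 as the lowest mean. The 2 groups were adult Tg(hsp70l:sflt4) fish and adult WT fish, strain AB in the labels of both. Ventricles of both groups had been cryoinjured, a freezing injury of part of the heart muscle, and the fish were then heat-shocked at 39 °C and sampled 24 h after the injury. In the transgenic fish the heat-shock promoter *hsp70l* drives sflt4, known as soluble Flt4, a receptor fragment that captures Vegfc, so heat switches it on throughout the body and not in a chosen cell type. WT fish received the heat without the transgene, and no unheated or uninjured ventricle is part of the comparison. Each group had 2 libraries, each from 3 pooled ventricles.

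Hyaluronan is a long sugar polymer that synthases of the cell membrane spin out into the matrix from nucleotide sugars. Versicans, large chondroitin sulfate proteoglycans, bind to it, link proteins lock that bond, and Cd44 holds the polymer at the cell surface. Decorin and lumican are small leucine-rich proteoglycans that sit on collagen fibrils. In the embryonic heart this hydrated matrix is the cardiac jelly, in which hyaluronan and versican are known to be needed for valve formation, and hyaluronan is also known to be deposited in the injured zebrafish ventricle.

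The deposited values are read counts scaled by library and rounded, called normalized reads below. Their totals were 30171847 and 32774116 in transgenic and 34096403 and 33799004 in WT libraries. Normalized reads of *flt4*, 504 and 538 in Tg(hsp70l:sflt4) against 618 and 515 in WT, overlapped between the groups. Whether reads of the transgene count towards this row cannot be told from the sources used here, and the gene does not check the labels. The heat-shock gene *hsp70l* had 1191 and 647 in Tg(hsp70l:sflt4) against 461 and 4264 in WT, and *vegfc* had 746 and 884 in Tg(hsp70l:sflt4) against 428 and 1077 in WT. Both were far apart between the WT libraries, low in replicate 1 and high in replicate 2, and the part of this in the results was not tested. Genes of heart muscle, endothelium, epicardium, fibroblasts and leukocytes were read in every library, and no marker that had a row was at 0 in any of them. The libraries of a group differed more in WT than in Tg(hsp70l:sflt4), with an SD between replicates of 0.39 in Tg(hsp70l:sflt4) and 0.51 in WT on the log2 scale over the 17071 genes tested. WT replicate 1 was the highest or the lowest library for 57.4% of them. RNA of a whole ventricle was measured, so fewer cells of a type and less RNA per cell cannot be told apart.

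Among the 10 genes, *has1*, *hapln1b*, *vcana* and *vcanb* had higher values in both Tg(hsp70l:sflt4) libraries than in either WT library. None was lower without overlap, and the groups overlapped for the other 6 genes. The share of all tested genes with no overlap was 21.8% in the higher direction, 21.4% in the lower and 43.2% in either. By mean log2 value 6 of the 10 genes were higher and 4 lower in Tg(hsp70l:sflt4), and 48.7% of all tested genes were higher. No gene of the 10 passed limma at an adjusted p under 0.05, and 0% of all tested genes did. At an unadjusted p under 0.05 there were 3 of the 10 genes, all higher in Tg(hsp70l:sflt4), where 5.57% of all tested genes were past that value and higher and 5.45% were past it and lower. The count among the 10 was 2 with a replicate block, and also 2 without trend and robust moderation. It changed as well when some single libraries were left out, as did the count over the whole table. Of all tested genes, 1881 were past that value in the main fit, 2285 with a replicate block and 1704 without trend and robust moderation. With the libraries scaled to equal totals, that division over all genes was 1584 higher and 548 lower, against 951 and 930 as deposited. The median log2 difference over the 10 genes was 0.12, and it was -0.01 over all genes tested. Over the 10 genes the median was 0.30 without Tg(hsp70l:sflt4) replicate 1, 0.02 without Tg(hsp70l:sflt4) replicate 2, 0.17 without WT replicate 1 and 0.57 without WT replicate 2.

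**Figure D1:**
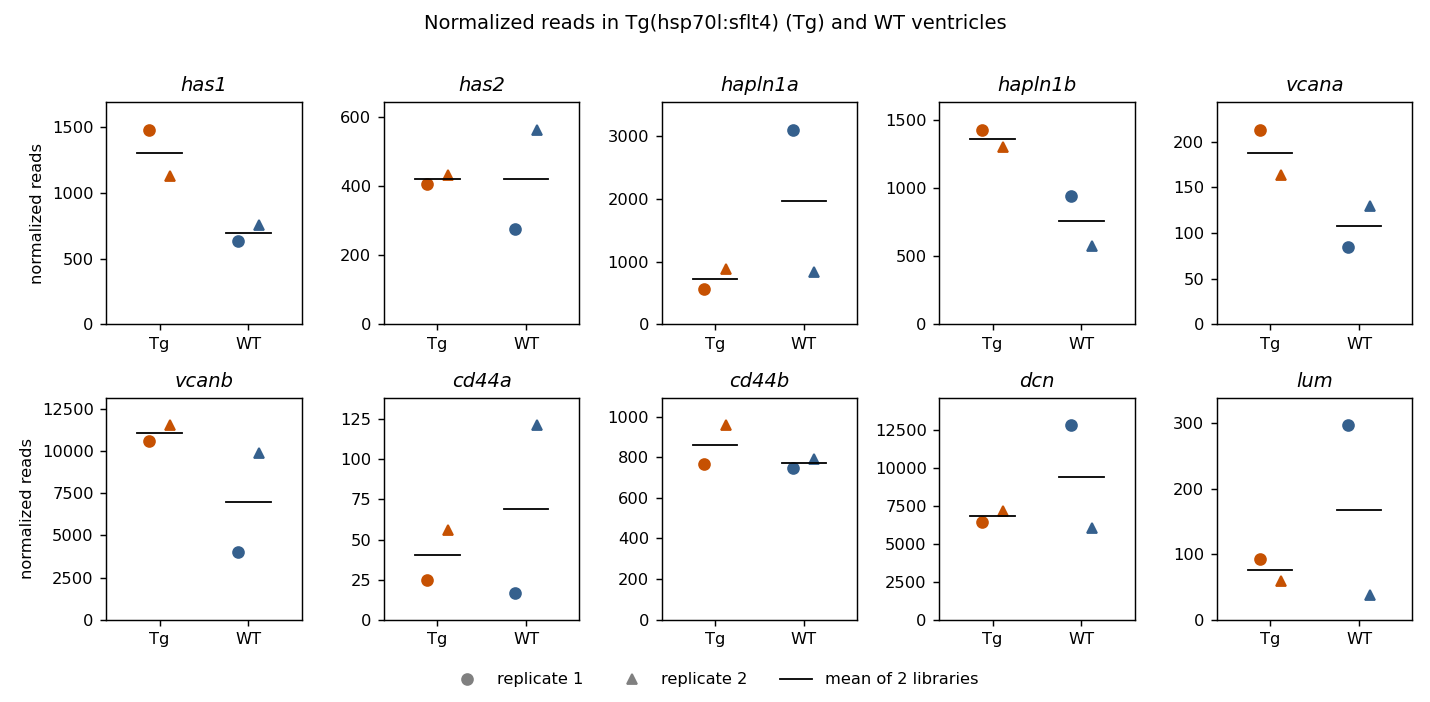
Normalized reads (vertical axes, each starting at 0) of the 10 genes in Tg(hsp70l:sflt4) and WT ventricles, with circles for replicate 1, triangles for replicate 2 and a line at the mean of 2 libraries. The transgenic libraries lie above both WT libraries for *has1*, *hapln1b*, *vcana* and *vcanb*, and WT replicate 1 lies far above the other 3 libraries for *hapln1a*, *dcn* and *lum*.

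The synthases make the polymer. *has1* (ENSDARG00000042983, chromosome 16, 24940377 to 24945337, minus strand, danRer11) encodes a hyaluronan synthase. It had 1480 and 1132 normalized reads in Tg(hsp70l:sflt4) against 631 and 755 in WT. Both transgenic libraries thus stood above both WT libraries, by a wider margin than either group's own spread. The means were 1306 ± 246 in Tg(hsp70l:sflt4) and 693 ± 87.7 in WT (SD, n = 2 each), and the log2 difference was 0.91 (SE 0.19, 95% interval 0.43 to 1.38, limma adjusted p = 0.306). It was the gene of the 10 with the smallest p, in place 195 among all tested genes, and it stayed between 0.71 and 1.099 when single libraries were left out.

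*has2* (ENSDARG00000036987, chromosome 16, 15369634 to 15387459, minus strand) encodes the synthase known in zebrafish for its part in atrioventricular valve formation. Its normalized reads were 407 and 432 in Tg(hsp70l:sflt4) against 276 and 563 in WT. The transgenic pair lay between the WT libraries, and the means were equal at 419.5 in Tg(hsp70l:sflt4) and 419.5 in WT, with an SD of 17.7 in Tg(hsp70l:sflt4) and 203 in WT. The log2 difference of 0.09 had a 95% interval of -0.76 to 0.94 (limma adjusted p = 0.944). Without WT replicate 1 it was -0.42, and without WT replicate 2 it was 0.60.

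Within the synthase pair, *has1* took 78.4% and 72.4% of the normalized reads in Tg(hsp70l:sflt4) and 69.6% and 57.3% in WT. This share was higher in both transgenic libraries. Transcript lengths were not used, so the share compares libraries and not the levels of the 2 genes. The log2 ratio of *has1* to *has2* averaged 1.62 in Tg(hsp70l:sflt4) and 0.81 in WT, a difference of 0.82 (two-sided exact permutation p = 0.333, adjusted over 5 pairs 0.833). Without WT replicate 1 this difference was 1.20, and with WT replicate 2 left out it was 0.43. With 2 libraries against 2, 0.333 is the smallest p that this test can give.

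The means of the link protein paralogues lay in opposite directions. *hapln1b* (ENSDARG00000068516, chromosome 10, 43269918 to 43334999, minus strand) had 1425 and 1297 normalized reads in Tg(hsp70l:sflt4) against 939 and 572 in WT. Both transgenic libraries were higher than both WT libraries. Its means were 1361 ± 90.5 in Tg(hsp70l:sflt4) and 755.5 ± 260 in WT (SD, n = 2 each), and the log2 difference was 0.89 (SE 0.25, 95% interval 0.27 to 1.51, limma adjusted p = 0.357). Without WT replicate 1, which was the WT library nearer to the transgenic ones, the difference was 1.25. With WT replicate 2 left out instead it was 0.53. Each of these fits has a single WT library, which is assumed to vary like the others. In other settings that kept all 4 libraries, the limma adjusted p was 0.265 or higher.

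*hapln1a* (ENSDARG00000089769, chromosome 5, 46490622 to 46505702, minus strand) encodes the link protein known in the zebrafish embryo for shaping the cardiac jelly. It had 561 and 875 normalized reads in Tg(hsp70l:sflt4) against 3101 and 831 in WT. WT replicate 1 alone was high, and WT replicate 2 lay within the transgenic range. The means were 718 ± 222 in Tg(hsp70l:sflt4) and 1966 ± 1605 in WT (SD, n = 2 each). This was the largest log2 difference of the 10 genes in size, -1.20 (SE 0.61, 95% interval -2.69 to 0.30, limma adjusted p = 0.528). Without WT replicate 1 it was -0.25, and without WT replicate 2 it was -2.14.

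As a share of the normalized reads of both link protein genes, *hapln1a* made up 28.2% and 40.3% in Tg(hsp70l:sflt4) and 76.8% and 59.2% in WT. Both transgenic libraries had the lower share. The log2 ratio of *hapln1a* to *hapln1b* was -1.34 and -0.57 in Tg(hsp70l:sflt4) and 1.72 and 0.54 in WT. Its group difference was -2.09 (two-sided exact permutation p = 0.333, adjusted over 5 pairs 0.833), and a ratio within a library does not depend on how the library was scaled. The summed reads of both genes, 1986 and 2172 in Tg(hsp70l:sflt4) against 4040 and 1403 in WT, overlapped between the groups.

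**Figure D2:**
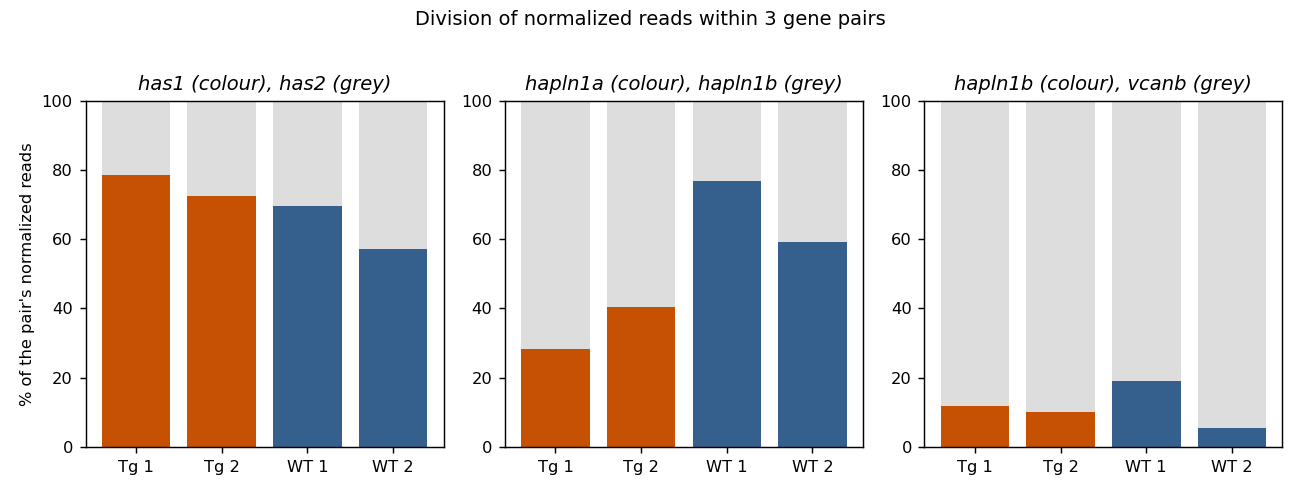
Percent of a gene pair's normalized reads (vertical axis, 0 to 100) in each library for *has1* with *has2*, *hapln1a* with *hapln1b*, and *hapln1b* with its chromosomal neighbour *vcanb*. The coloured part is the first gene of the pair, with transgenic libraries on the left, and *hapln1a* takes 28.2% and 40.3% in Tg(hsp70l:sflt4) against 76.8% and 59.2% in WT.

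Versican genes were higher in the transgenic libraries for both paralogues. *vcanb* (ENSDARG00000009401, chromosome 10, 43188678 to 43263885, plus strand) had 10584 and 11507 normalized reads in Tg(hsp70l:sflt4) against 4028 and 9872 in WT. The groups did not overlap, but WT replicate 2 stood close below the transgenic libraries and WT replicate 1 far below. Its means were 11045.5 ± 653 in Tg(hsp70l:sflt4) and 6950 ± 4132 in WT (SD, n = 2 each), with a log2 difference of 0.81 (SE 0.41, 95% interval -0.20 to 1.82, limma adjusted p = 0.527). Without WT replicate 1 the difference was 0.16, and without WT replicate 2 it was 1.45. In other settings that kept all 4 libraries, the limma adjusted p was 0.405 or higher.

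*vcana* (ENSDARG00000103515, chromosome 5, 46424437 to 46486028, plus strand) had 213 and 163 normalized reads in Tg(hsp70l:sflt4) against 85 and 130 in WT. Again the transgenic libraries were both higher. The means were 188 ± 35.4 in Tg(hsp70l:sflt4) and 107.5 ± 31.8 in WT (SD, n = 2 each), and the log2 difference was 0.82 (SE 0.31, 95% interval 0.05 to 1.59, limma adjusted p = 0.434). Leaving out WT replicate 1 gave 0.52, and leaving out WT replicate 2 gave 1.12. *vcana* made up 1.97% and 1.40% of the versican reads in Tg(hsp70l:sflt4) and 2.07% and 1.30% in WT, so the division between the paralogues overlapped between the groups.

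The versican and link protein genes are chromosomal neighbours. *vcana* and *hapln1a* lie tail to tail on chromosome 5 with 4593 bases between their annotated ends, and *vcanb* and *hapln1b* do so on chromosome 10 with 6032 bases between them. *lum* and *dcn* follow each other on the minus strand of chromosome 4, 14469 bases apart. The deposited table lists 0 genes within any of these intervals, and the RefSeq gene table of assembly GRCz12tu also places 0 genes inside each pair. The annotated spans do not overlap, and the strand setting of the counting was not stated in the sources used. Neighbours on chromosome 5 did not share a direction, with *vcana* higher and *hapln1a* lower in mean in Tg(hsp70l:sflt4), while on chromosome 10 both neighbours were higher. *hapln1a* was 72.5% and 84.3% of the reads of its chromosome 5 pair in Tg(hsp70l:sflt4) and 97.3% and 86.5% in WT. *hapln1b* was 11.9% and 10.1% of those of the chromosome 10 pair in Tg(hsp70l:sflt4) and 18.9% and 5.48% in WT, so the transgenic libraries lay between the WT ones.

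Neither Cd44 receptor gene showed a separation of the groups. *cd44b* (ENSDARG00000089892, chromosome 25, 37408792 to 37422859, minus strand) encodes a Cd44 hyaluronan receptor and had 768 and 956 normalized reads in Tg(hsp70l:sflt4) against 745 and 793 in WT. All 4 libraries lay close together, with 1 transgenic library between the WT ones. The log2 difference of 0.16 had the narrowest 95% interval of the 10 genes, -0.25 to 0.57 (SE 0.17, limma adjusted p = 0.755). Leaving out Tg(hsp70l:sflt4) replicate 2 gave -0.0012.

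*cd44a* (ENSDARG00000087863, chromosome 7, 49882750 to 49892991, minus strand), its paralogue, had only 25 and 56 normalized reads in Tg(hsp70l:sflt4) against 17 and 121 in WT. The WT libraries lay on either side of the transgenic ones and were 6.78-fold apart. Only 0.855% of all tested genes were as far apart in WT. The log2 difference of -0.28 (SE 0.94, 95% interval -2.62 to 2.05, limma adjusted p = 0.936) became -1.66 without WT replicate 1, 1.097 without WT replicate 2 and 0.28 without Tg(hsp70l:sflt4) replicate 1.

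Both small leucine-rich proteoglycan genes were high in WT replicate 1. *dcn* (ENSDARG00000012066, chromosome 4, 16368762 to 16412084, minus strand), for decorin, had 6450 and 7163 normalized reads in Tg(hsp70l:sflt4) against 12771 and 6029 in WT. The transgenic values lay between the WT ones. Its means were 6806.5 ± 504 in Tg(hsp70l:sflt4) and 9400 ± 4767 in WT (SD, n = 2 each), and the log2 difference was -0.37 (SE 0.35, 95% interval -1.24 to 0.50, limma adjusted p = 0.728). Without WT replicate 1 it was 0.17, and without WT replicate 2 it was -0.91.

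*lum* (ENSDARG00000045580, chromosome 4, 16349042 to 16354292, minus strand), for lumican, had 93 and 59 normalized reads in Tg(hsp70l:sflt4) against 296 and 38 in WT. WT replicate 1 was the highest library and WT replicate 2 the lowest, 7.62-fold apart, a distance that 0.732% of all tested genes reached in WT. The log2 difference was -0.52 (SE 0.92, 95% interval -2.81 to 1.77, limma adjusted p = 0.861). Leaving out WT replicate 1 gave 0.95, and leaving out WT replicate 2 gave -1.98. The log2 ratio of *dcn* to *lum*, 6.10 and 6.90 in Tg(hsp70l:sflt4) against 5.43 and 7.27 in WT, also had the transgenic libraries in the middle.

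**Figure D3:**
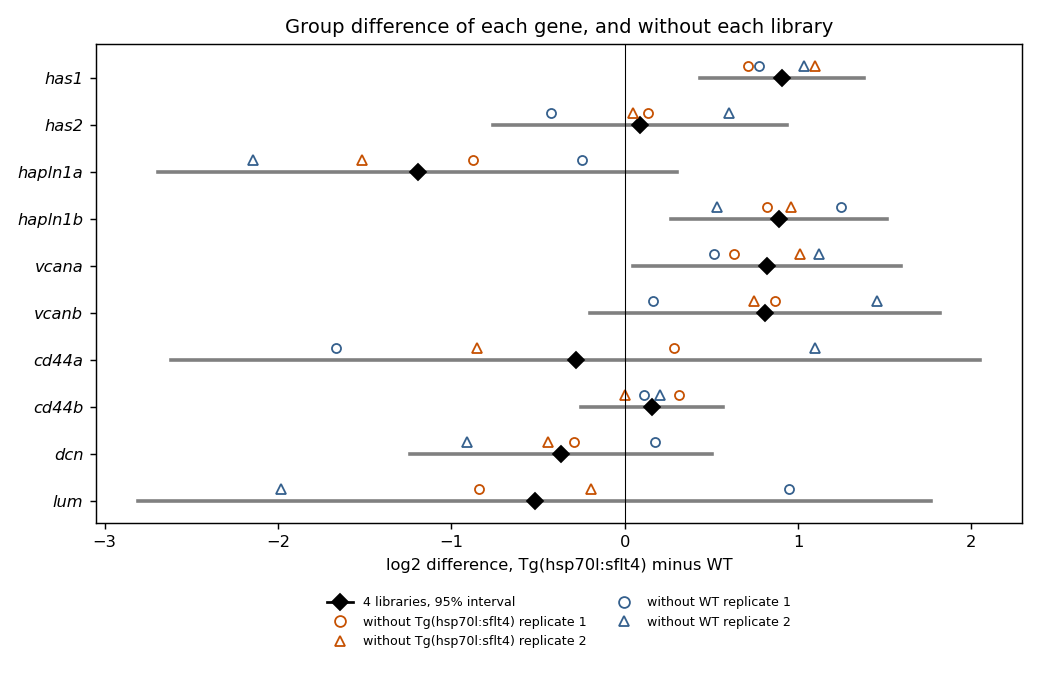
Log2 difference, Tg(hsp70l:sflt4) minus WT (horizontal axis), of the 10 genes, with black diamonds and grey 95% intervals for the limma fit of 4 libraries and open marks for fits without 1 library. All open marks of *has1*, *hapln1b*, *vcana* and *vcanb* lie right of 0 and those of *hapln1a* left of it, while those of *has2*, *cd44a*, *cd44b*, *dcn* and *lum* fall on either side.

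Much of the variation of these genes lay inside the WT group. WT libraries were further apart than transgenic ones for 8 of the 10 genes, as for 60.7% of all tested genes. They were 1.06-fold to 7.62-fold apart in WT, and the transgenic libraries were 1.06-fold to 2.19-fold apart. The WT libraries enclosed both transgenic values for 4 of the 10 genes, *has2*, *cd44a*, *dcn* and *lum*, where 18.9% of all tested genes had this pattern. WT replicate 1 was the highest or the lowest of the 4 libraries for 9 of the 10 genes, against 57.4% of all tested genes. It was the highest for *hapln1a*, *dcn* and *lum* and the lowest for 6 others, and the exception was *hapln1b*.

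Most markers of cell types that make matrix were also highest in WT replicate 1. The summed normalized reads of 5 fibroblast markers (*col1a1a*, *col1a2*, *pdgfra*, *postnb* and *col5a1*) were 68531 and 68227 in Tg(hsp70l:sflt4) against 79640 and 33278 in WT. All 5 were highest in WT replicate 1. That library was the highest or the lowest for 57.4% of all tested genes, a share that counts both directions and not the highest alone. The groups were separate for 0 of the 5, against 43.2% of all tested genes in either direction. Epicardial markers summed to 18720 and 17511 in Tg(hsp70l:sflt4) against 20372 and 18940 in WT, with a mean log2 deviation of 0.46 in WT replicate 1 and -0.18 in WT replicate 2. Most of that sum was *aldh1a2*, at 16762 and 15839 in Tg(hsp70l:sflt4) against 17654 and 17400 in WT. Of the 6 epicardial genes, 3 were lower and 1 higher in Tg(hsp70l:sflt4) without overlap, against 21.4% and 21.8% of all tested genes. Smooth muscle markers summed to 7620 and 7193 in Tg(hsp70l:sflt4), against 11322 in WT replicate 1 and 6858 in WT replicate 2. Among them *myh11a* was nearly flat, at 3428 and 3301 in Tg(hsp70l:sflt4) against 3602 and 3382 in WT. Exceptions were the smooth muscle *elnb*, at 109 and 140 in Tg(hsp70l:sflt4) against 74 and 58 in WT, and the epicardial *wt1b*. The latter had 691 and 529 in Tg(hsp70l:sflt4) against 506 and 340 in WT. The part of these cell types in the high *hapln1a*, *dcn* and *lum* values of WT replicate 1 was not tested.

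Some leukocyte and heart muscle markers differed in level between the groups. All 4 pan-leukocyte markers (*ptprc*, *coro1a*, *lcp1* and *laptm5*) were higher in Tg(hsp70l:sflt4) without overlap, a pattern that 21.8% of all tested genes had, with summed reads of 39583 and 53898 in Tg(hsp70l:sflt4) against 28278 and 29591 in WT. Macrophage markers summed to 46728 and 60224 in Tg(hsp70l:sflt4) against 29999 and 41900 in WT, with 3 of 6 higher and 1 lower without overlap. Of 5 neutrophil markers tested, 0 were higher and 1 lower without overlap. Lymphocyte markers had 1 higher and 2 lower of 5. Of 5 heart muscle markers tested, 4 were lower without overlap, as were 21.4% of all tested genes, and *nppa* overlapped. The 5 summed to 667432 and 708942 in Tg(hsp70l:sflt4) against 866978 and 852748 in WT. A further marker, *actc1a*, had several rows and was left out. The row named *ACTC1*, not in the list, was higher at 28329 and 24722 in Tg(hsp70l:sflt4) against 17890 and 11243 in WT. Of 6 markers of endothelium and endocardium, 2 were higher and 1 lower without overlap. Erythrocyte, thrombocyte and chondrocyte lists, with 3 markers tested in each, had 0 higher and 1 lower without overlap per list. None of these markers passed limma at an adjusted p under 0.05. Their part in the higher *has1*, *hapln1b*, *vcana* and *vcanb* values was not tested.

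**Figure D4:**
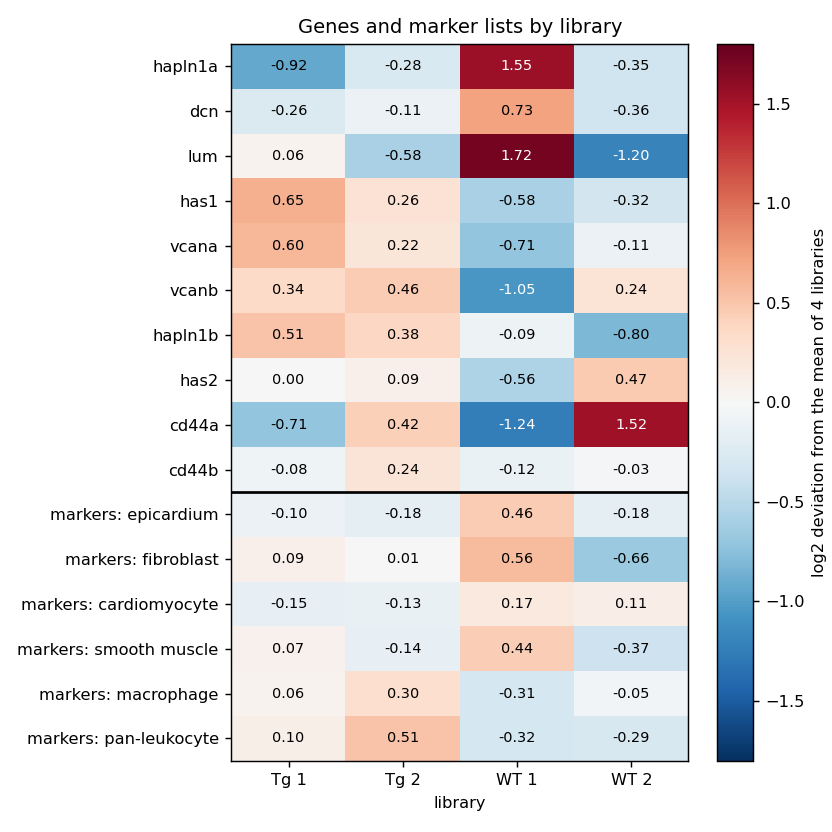
Log2 deviation of each library (columns, transgenic on the left) from the mean of the 4 libraries, for the 10 genes above the line and, below it, for the mean of 6 cell type marker lists. *hapln1a* (1.55), *dcn* (0.73) and *lum* (1.72) are high in WT replicate 1, as are fibroblast (0.56) and epicardial (0.46) markers. WT replicate 2 is at -0.66 for fibroblast and -0.18 for epicardial markers, and at -0.35, -0.36 and -1.20 for *hapln1a*, *dcn* and *lum*.

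The wider pathway was followed through 9 lists of genes for hyaluronan precursors, turnover and binding, other proteoglycans, chondroitin sulfate synthesis, matrix proteases and Cd44 partners. The 144 symbols outside the 10 genes led to 97 tested genes, with *cemip2* and *tmem2* naming the same row. Of the 97 genes, 47 had a higher and 50 a lower mean log2 value in Tg(hsp70l:sflt4). None passed limma at an adjusted p under 0.05, with 0.272 the lowest value reached. With the libraries scaled to equal totals, 59 of the 97 were higher, while the median log2 difference over all tested genes moved to 0.10 from -0.01. Past an unadjusted p of 0.05 were 7 higher and 7 lower genes, 14.4% of the 97 against 11% of all tested genes. Those 14 became 7 without trend and robust moderation, where all tested genes past that value numbered 1704 against 1881. Leaving out single libraries also changed the count, as it did over all genes tested. Groups did not overlap for 24 higher and 16 lower genes, which is 24.7% and 16.5% of the 97, where all tested genes had 21.8% and 21.4%. The median log2 difference was -0.03, against -0.01 over all genes tested.

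Of 11 precursor genes tested, 3 were higher and 1 lower in Tg(hsp70l:sflt4) without overlap, against 21.8% and 21.4% of all tested genes. *uap1l1*, a relative of the enzyme that makes UDP-N-acetylglucosamine, had 1224 and 1640 normalized reads in Tg(hsp70l:sflt4) against 1023 and 1007 in WT, a log2 difference of 0.48 that was 0.27 without Tg(hsp70l:sflt4) replicate 2. *pgm3*, for an earlier step to the same sugar, had 553 and 631 in Tg(hsp70l:sflt4) against 429 and 489 in WT, while *gfpt2*, for the entry enzyme of that route, was lower at 266 and 184 in Tg(hsp70l:sflt4) against 308 and 320 in WT. *gnpnat1*, also of that route, overlapped between the groups at 483 and 538 in Tg(hsp70l:sflt4) against 341 and 488 in WT. For hyaluronan breakdown, the hyaluronidase gene *hyal3* had 67 and 98 in Tg(hsp70l:sflt4) against 39 and 60 in WT and *hyal1* had 595 and 436 in Tg(hsp70l:sflt4) against 334 and 436 in WT. *cemip*, whose product takes part in this breakdown, was another gene with a high WT replicate 1. It had 324 and 244 in Tg(hsp70l:sflt4) against 755 and 299 in WT (log2 difference -0.76, and -0.088 without WT replicate 1). The lysosomal *hexb* had 4798 and 6334 in Tg(hsp70l:sflt4) against 3389 and 4991 in WT.

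Hyaluronan-binding genes outside the 10 went in both directions. *tnfaip6*, whose product transfers protein chains onto hyaluronan at sites of inflammation, had 4135 and 3443 normalized reads in Tg(hsp70l:sflt4) against 2342 and 2812 in WT, and its log2 difference was 0.56 (SE 0.17, limma adjusted p = 0.376). *stab2*, a scavenger receptor that clears hyaluronan, had 1127 and 1288 in Tg(hsp70l:sflt4) against 1053 and 433 in WT, and *hmmr*, a hyaluronan-binding protein that also acts at the mitotic spindle, had 398 and 285 in Tg(hsp70l:sflt4) against 273 and 78 in WT. These 3 genes were higher without overlap, whereas *laynb*, for a layilin receptor, was lower at 125 and 133 in Tg(hsp70l:sflt4) against 160 and 231 in WT. Of 12 hyaluronan-binding genes tested outside the 10, 4 were higher and 3 lower without overlap, against 21.8% and 21.4% of all tested genes. Log2 differences of *stab2* and *hmmr* were 1.47 and 2.10 without WT replicate 1, and 0.19 and 0.30 without WT replicate 2.

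The smallest p among the 97 genes belonged to *lyve1a*, a gene of the Lyve1 family of hyaluronan receptors, which was picked out after its values were seen because its mean was under 50. It had 10 and 10 normalized reads in Tg(hsp70l:sflt4) against 59 and 60 in WT. Libraries of a group were nearly equal and the groups stood far apart. Values this low carry much counting error, so the near equality within a group can be a coincidence. The log2 difference was -2.46 (limma adjusted p = 0.272, SE 0.41), and it was between -2.47 and -2.45 when single libraries were left out. *lyve1b*, its paralogue, known as a lymphatic vessel marker in zebrafish, had 38 and 38 in Tg(hsp70l:sflt4) against 120 and 40 in WT, so that WT replicate 2 was close to the transgenic libraries. Its log2 difference was -0.85, and -0.072 without WT replicate 1.

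Of the hyalectan and link protein genes outside the 10, 3 were tested and all 3 had the lower mean in Tg(hsp70l:sflt4), 2 without overlap. Among all tested genes 48.7% had the higher mean, and 21.4% were lower without overlap. *bcan*, for brevican, had 506 and 17 normalized reads in Tg(hsp70l:sflt4) against 1655 and 1202 in WT, and its log2 difference was -3.89 (SE 1.44, limma adjusted p = 0.429). That value rests on the low Tg(hsp70l:sflt4) replicate 2, since leaving out Tg(hsp70l:sflt4) replicate 1 gave -6.29 and leaving out Tg(hsp70l:sflt4) replicate 2 gave -1.48. *acana*, for aggrecan, had 121 and 85 in Tg(hsp70l:sflt4) against 152 and 260 in WT, and *hapln3*, for another link protein, overlapped at 144 and 168 in Tg(hsp70l:sflt4) against 218 and 126 in WT. Among small leucine-rich proteoglycans, *prelp* was lower at 210 and 294 in Tg(hsp70l:sflt4) against 775 and 478 in WT (log2 difference -1.29, SE 0.30, limma adjusted p = 0.313) and *aspn*, for asporin, higher at 113 and 89 in Tg(hsp70l:sflt4) against 53 and 59 in WT. *bgnb*, for biglycan, had 46 and 52 in Tg(hsp70l:sflt4) against 79 and 60 in WT. *podn*, for podocan, had 38 and 56 in Tg(hsp70l:sflt4) against 181 and 42 in WT, the WT replicate 1 pattern of *dcn* and *lum*.

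Other proteoglycan genes included *prg4b*, for a lubricin, with 18 and 18 normalized reads in Tg(hsp70l:sflt4) against 41 and 129 in WT. Its log2 difference was -1.96 (limma adjusted p = 0.373), and without WT replicate 1 it was -2.77, against -1.14 without WT replicate 2. *gpc1b* and *gpc5a*, for glypicans of the cell surface, were higher at 2532 and 2408 in Tg(hsp70l:sflt4) against 1585 and 1976 in WT and at 99 and 102 in Tg(hsp70l:sflt4) against 53 and 65 in WT. *agrn*, for agrin, had 3172 and 2576 in Tg(hsp70l:sflt4) against 2290 and 2227 in WT.

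Chondroitin sulfate enzymes build the side chains that versican carries. The list used also holds genes of the Fam20 family, *fam20a* among them, not all of which act in this synthesis. Of its 23 genes tested, 15 had the higher mean in Tg(hsp70l:sflt4), 8 of them without overlap, and 1 gene was lower without overlap. Over all tested genes 48.7% had the higher mean, 21.8% were higher without overlap and 21.4% lower. *chst15*, a sulfotransferase, had 1149 and 1555 normalized reads in Tg(hsp70l:sflt4) against 980 and 504 in WT, and *chst11*, also a sulfotransferase, had 417 and 374 in Tg(hsp70l:sflt4) against 229 and 345 in WT. *chst13*, of the same family, had 199 and 236 in Tg(hsp70l:sflt4) against 136 and 161 in WT. *dse*, the epimerase that turns chondroitin into dermatan sulfate, had 825 and 799 in Tg(hsp70l:sflt4) against 652 and 566 in WT. For *chst15* the log2 difference was 0.93 (limma adjusted p = 0.425), 1.41 without WT replicate 1 (adjusted p = 0.0421) and 0.45 without WT replicate 2. The gene lower without overlap was *fam20a*, for a pseudokinase of the secretory pathway, at 31 and 36 in Tg(hsp70l:sflt4) against 58 and 63 in WT. It too was picked out after its values were seen.

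Of 11 proteases that act on versican or Cd44, 9 had the lower mean, with 2 lower and 1 higher without overlap. Of all tested genes 48.7% had the higher mean, and 21.4% were lower and 21.8% higher without overlap. The protease gene higher without overlap, *mmp14b*, named after its values were seen, had 4463 and 4495 in Tg(hsp70l:sflt4) against 3716 and 4426 in WT. Its paralogue *mmp14a*, for a membrane metalloprotease known in mammals to cut Cd44, had 1050 and 1244 normalized reads in Tg(hsp70l:sflt4) against 1548 and 1443 in WT. *adamts1*, whose product cuts versican in mammals, overlapped at 888 and 472 in Tg(hsp70l:sflt4) against 845 and 1156 in WT. *adamts8a* was lower at 185 and 145 in Tg(hsp70l:sflt4) against 295 and 191 in WT, and *adamts15a* had 335 and 169 in Tg(hsp70l:sflt4), against 804 in WT replicate 1 and 192 in WT replicate 2. Of the 4 Cd44 partner genes tested, 0 were at an unadjusted p under 0.05. Lower without overlap were 2 of them, as were 21.4% of all tested genes. *ezra*, for ezrin, which ties membrane proteins to actin, had 69 and 79 in Tg(hsp70l:sflt4) against 100 and 92 in WT. *nf2a*, for a merlin, had 352 and 334 in Tg(hsp70l:sflt4) against 449 and 367 in WT. Its paralogue *nf2b* overlapped at 1202 and 1022 in Tg(hsp70l:sflt4) against 1306 and 1078 in WT. *msna* also overlapped, at 50387 and 44977 in Tg(hsp70l:sflt4) against 41262 and 49560 in WT (log2 difference 0.07).

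**Figure D5:**
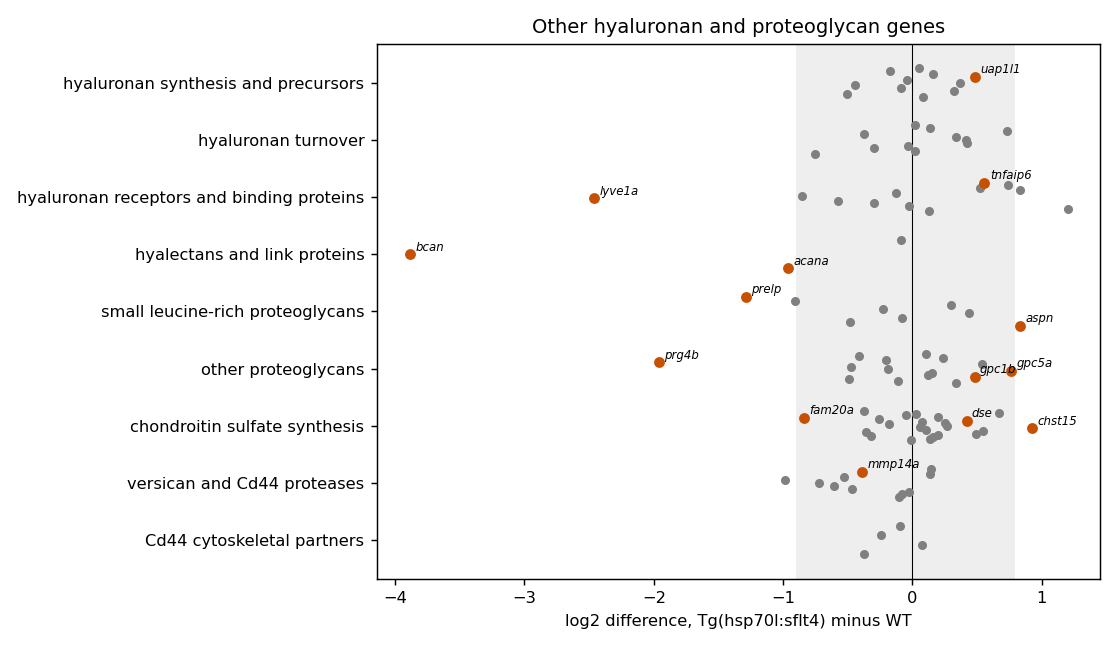
Log2 difference, Tg(hsp70l:sflt4) minus WT (horizontal axis), of 97 further hyaluronan and proteoglycan genes in 9 lists, with orange for an unadjusted limma p under 0.05. Each point is 1 gene, except that *cemip2* and *tmem2*, names of the same gene, are both drawn. The grey band holds 90% of all tested genes, from -0.90 to 0.79, and *bcan*, *lyve1a* and *prg4b* lie furthest to its left.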

How the data were processed

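Messenger RNA libraries of 4 ventricle pools, 2 per group, were compared. Per the labels, 500 ng of total RNA entered a stranded mRNA-seq kit (VAHTS, Vazyme). The build is danRer11, and DESeq2 1.18.1, featureCounts 1.6.3 (Subread), Trimmomatic 0.38 and FastQC are listed, per the submitters' processing notes. No source used here names the aligner. The deposited values are a score, taken to be read counts divided by a factor per library and rounded, since the table is named as normalized and the library medians are nearly equal (335 and 328 in Tg(hsp70l:sflt4), 335 and 332 in WT), so no count test was used.

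Values were analysed as log2(value + 1) with limma 3.58.1 in R 4.3.3 (trend, robust) over 17071 genes with a mean of at least 10, with Benjamini-Hochberg adjustment over all of them, a threshold of 0.05 and no covariate. Fold changes on this scale are understated for low genes. Nothing says how the pools relate. The p-values set a group difference against the spread between these libraries only, moderated over all genes, and that spread may be technical. Reads may be divided between paralogues by the counting, which was not checked here.

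The genes, lists and tests were chosen with earlier results of these data known. Genes named were the 10, up to 4 per pathway list with the smallest p and a mean of at least 50, and, from the 3 nearest profiles with a mean of at least 100 of each of the 10, the nearest; *lyve1a*, *lyve1b*, *fam20a* and *mmp14b* were added after their values were seen. Of the pathway symbols, 2 with several rows were left out. Ratios within gene pairs were tested by exact permutation over libraries. Alternatives were other scalings, pseudocounts of 0.5 and 5, other filters, limma without trend and robust moderation, limma-voom, a replicate block and leaving out each library.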

Additional observations from a re-analysis of the deposited data

How the results depend on the processing

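The 10 genes and the pathway genes gave 0 calls under every setting that kept all 4 libraries, limma-voom included. Leaving out single libraries gave 0 to 250 called genes over the whole table (with transgenic replicate 1 out 3, transgenic replicate 2 out 0, WT replicate 1 out 250 and WT replicate 2 out 75), 0 to 1 among the 10 genes and 0 to 4 among the pathway genes. Genes at an unadjusted p under 0.05 then also changed in number, over the whole table as well as among the 10 and among the pathway genes. Changes of sign were followed for the 10 genes and for the pathway genes whose values are given above, except *msna* and *nf2b*. Other pathway genes were not followed. Log2 differences whose sign turned when a library was left out ranged from -0.42 to 0.60 for *has2* and from -1.66 to 1.097 for *cd44a*. They ranged from -0.0012 to 0.31 for *cd44b*, from -0.91 to 0.17 for *dcn* and from -1.98 to 0.95 for *lum*. Among the pathway genes followed, the range was -0.48 to 0.30 for *hapln3*, -1.95 to 0.13 for *podn* and -1.75 to 0.31 for *adamts15a*. Group differences of log2 ratios ranged from -0.33 to 0.36 for *vcana* to *vcanb*, from -1.78 to 0.90 for *cd44a* to *cd44b*, from -0.77 to 1.07 for *dcn* to *lum* and from -0.92 to 1.09 for *hapln1b* to *vcanb*. With a pseudocount of 5 the *vcana* to *vcanb* difference was -0.011, against 0.012. Scaling to equal totals moved the median of all genes to 0.10, against -0.01, and turned *hapln3* to 0.018, against -0.09. The cause was not tested.

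The groups share replicate numbers, but the labels do not say that a number marks a shared batch. Deviations of the replicates 1 correlated at 0.14 over genes. With a replicate block, 0 genes were called and 2285 were at an unadjusted p under 0.05, against 1881 without it. The block left *has1* at 0.91 (adjusted p = 0.265). Values near the lowest here, such as 10 reads of *lyve1a* and 17 reads of *cd44a*, carry the most counting error, and depth per gene is known only after scaling.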

Other observations

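The genes whose profile over the 4 libraries was nearest to each of the 10 were listed by Euclidean distance between centred log2 values, as a description over 4 points. Nearest to *has1* was *megf6a* (273 and 208 normalized reads in Tg(hsp70l:sflt4) against 118 and 147 in WT, distance 0.068), and nearest to *vcana* was *e2f7*, for an atypical E2F factor (148 and 108 in Tg(hsp70l:sflt4) against 59 and 93 in WT, distance 0.079). *has2* lay nearest to *josd2* (382 and 403 in Tg(hsp70l:sflt4) against 271 and 523 in WT, distance 0.064), and *hapln1b* nearest to the row named *ACTC1* (28329 and 24722 in Tg(hsp70l:sflt4) against 17890 and 11243 in WT, distance 0.054). Genes high in WT replicate 1 stood beside *hapln1a*, *dcn* and *lum*: *zfyve9b* (63 and 94 in Tg(hsp70l:sflt4) against 313 and 95 in WT, distance 0.15), the keratin gene *krt91* (952 and 1070 in Tg(hsp70l:sflt4) against 1878 and 921 in WT, distance 0.043) and *rpe65b* (102 and 61 in Tg(hsp70l:sflt4) against 272 and 42 in WT, distance 0.21). A gene with only a clone name was nearest to *vcanb* (219 and 233 in Tg(hsp70l:sflt4) against 84 and 181 in WT, distance 0.15). *mxc*, of the interferon-induced Mx family, was nearest to *cd44a* (131 and 223 in Tg(hsp70l:sflt4) against 61 and 508 in WT, distance 0.40), and *h3f3d*, for a histone, nearest to *cd44b* (3092 and 3876 in Tg(hsp70l:sflt4) against 3043 and 3222 in WT, distance 0.015). Among the 10 genes themselves, *has1* and *vcana* were the closest pair, at a distance of 0.26.

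The annotation in the deposited table gives the term hyaluronic acid binding to 8 genes, 4 of them among the 10. It holds no term or only a single term for 3 of the 10 genes, *vcana*, *cd44b* and *lum*.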
